A study of Mus musculus with 46 samples.

Results

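Control microglia were followed from 6 to 24 hr after lipopolysaccharide (LPS) in 9 RNA-seq libraries, 5 at 6 hr and 4 at 24 hr, chosen by their sample titles from the 24 libraries of sorted cells and the 46 libraries of the whole series. Cells were sorted by FACS as CD11b+CD45int myeloid cells from whole brain hemispheres of 2 month old C57BL/6 mice on vehicle chow, which received 0.33 mg/kg LPS in the peritoneum 6 or 24 hr before collection. Control microglia of mice without LPS (0 hr, n = 3) gave the level from which genes had moved, and the sources do not say clearly whether these mice were injected with PBS, so a change from 0 hr may include that of an injection. WM repopulating cells, sorted through the same gate from mice that had 14 days of the CSF1R inhibitor PLX3397 in chow followed by 28 days of recovery, were collected at 6 and 24 hr after the same dose of LPS (n = 4 each) and served to test whether their change differed. The fit holds all 6 groups of sorted cells, so these libraries and those of WM repopulating cells at 0 hr also enter the estimate of the spread behind each p, and with only the 3 control groups in the fit 1468 genes were higher and 1238 lower at 24 than at 6 hr, in place of 1907 and 1686. The gate takes all cells with these surface levels, so it is not limited to microglia, and while the study counts n in mice, the labels do not tie libraries to mice. The protocol field of the labels describes microdissected brain regions, whereas their cell type field gives myeloid cells of whole hemispheres, and the sorting is given as in the study's methods.

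LPS is a component of the wall of Gram-negative bacteria and is recognized by TLR4 with its coreceptor CD14. Its signal runs through MyD88 to NF-kB, which switches on cytokines together with their own inhibitors, and through TRIF to interferon regulatory factors and type I interferon, which then induces interferon-stimulated genes (ISGs) through binding sites named ISRE. Microglia exposed to inflammatory signals also lower the genes that mark their resting state, among them *P2ry12* and *Tmem119*. Resolution is the phase in which induced genes return and resting genes recover, and genes can return, rise late or stay changed in this phase.

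Levels are FPKM, reads scaled by gene length and by library size, so levels of different genes can be set side by side per length. Changes are log2 fold changes on the log2(FPKM + 1) scale, with a standard error (SE) and a Benjamini-Hochberg adjusted p from limma over 12684 tested genes, and a gene passed the test with an adjusted p under 0.05. Library sizes recovered from the values were 5.24 M to 7.17 M reads at 6 hr and 6.11 M to 8.5 M at 24 hr, and for a gene 2 kb long a single read equals 0.0697 to 0.0955 FPKM at 6 hr and 0.0588 to 0.0819 FPKM at 24 hr. A pair of libraries stood apart from their groups. Replicate 2 at 6 hr had the strongest cytokine levels (*Il1b* at 1238 FPKM against 87.5 to 131 in the other libraries at 6 hr), and replicate 4 at 24 hr had a low level of *Tmem119* (556 FPKM against 1790 to 1986). Without both libraries, 1667 genes passed the test as higher and 1331 as lower at 24 hr, and list counts that move by over 1.5 times without them are given beside their results. The 37 genes of a homeostatic microglia list summed to 58790 to 65410 FPKM at 0 hr, 25060 to 29980 FPKM at 6 hr and 26950 to 32670 FPKM at 24 hr, so the sorted cells carried the markers of microglia at all times.

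From 6 to 24 hr, 1907 genes were higher (15% of the genes tested) and 1686 lower (13.3%), of which 610 and 520 changed at least 2-fold. FPKM values of the 6 and 24 hr libraries did not overlap for 1405 higher genes (11.1%) and 1256 lower genes (9.9%). For comparison, 2714 genes were higher (21.4%) and 2676 lower (21.1%) at 6 hr than at 0 hr, while 1537 were still or newly higher (12.1%) and 1171 lower (9.23%) at 24 hr than at 0 hr. By these 3 tests, 774 genes rose at least 2-fold by 6 hr and then fell (6.1%), and 725 fell at least 2-fold by 6 hr and then rose (5.72%). A late rise, of at least 2-fold between 6 and 24 hr, with a call above 0 hr and a change by 6 hr under 50% of that by 24 hr, was seen in 133 genes (1.05%), and the mirrored late fall in 7 (0.0552%). Another 231 genes stayed higher (1.82%) and 201 stayed lower (1.58%), meaning at least 2-fold from 0 hr at both times with no call between 6 and 24 hr. The comparisons share libraries, so these classes are descriptions of 1 set of 12 control libraries.

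How far genes returned was expressed as the percent of the 6 hr change (log2) that was undone by 24 hr. Among all 2381 genes that had passed the test with at least a 2-fold change by 6 hr, the median was 50.9%, and it was 51% for the 1213 that had risen and 50.8% for the 1168 that had fallen. In the class that rose and fell back the median log2 fold change was 1.60 by 6 hr and -1.09 from 6 to 24 hr, 64.4% of the change was undone in the median gene, and 319 of the 774 were still called higher at 24 hr than at 0 hr. In the class that fell and recovered the medians were -1.47 and 0.96, with 64.3% undone, and 281 of the 725 were still called lower. The 6 hr libraries enter both changes, so a percent undone is given without a test.

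**Figure D1:**
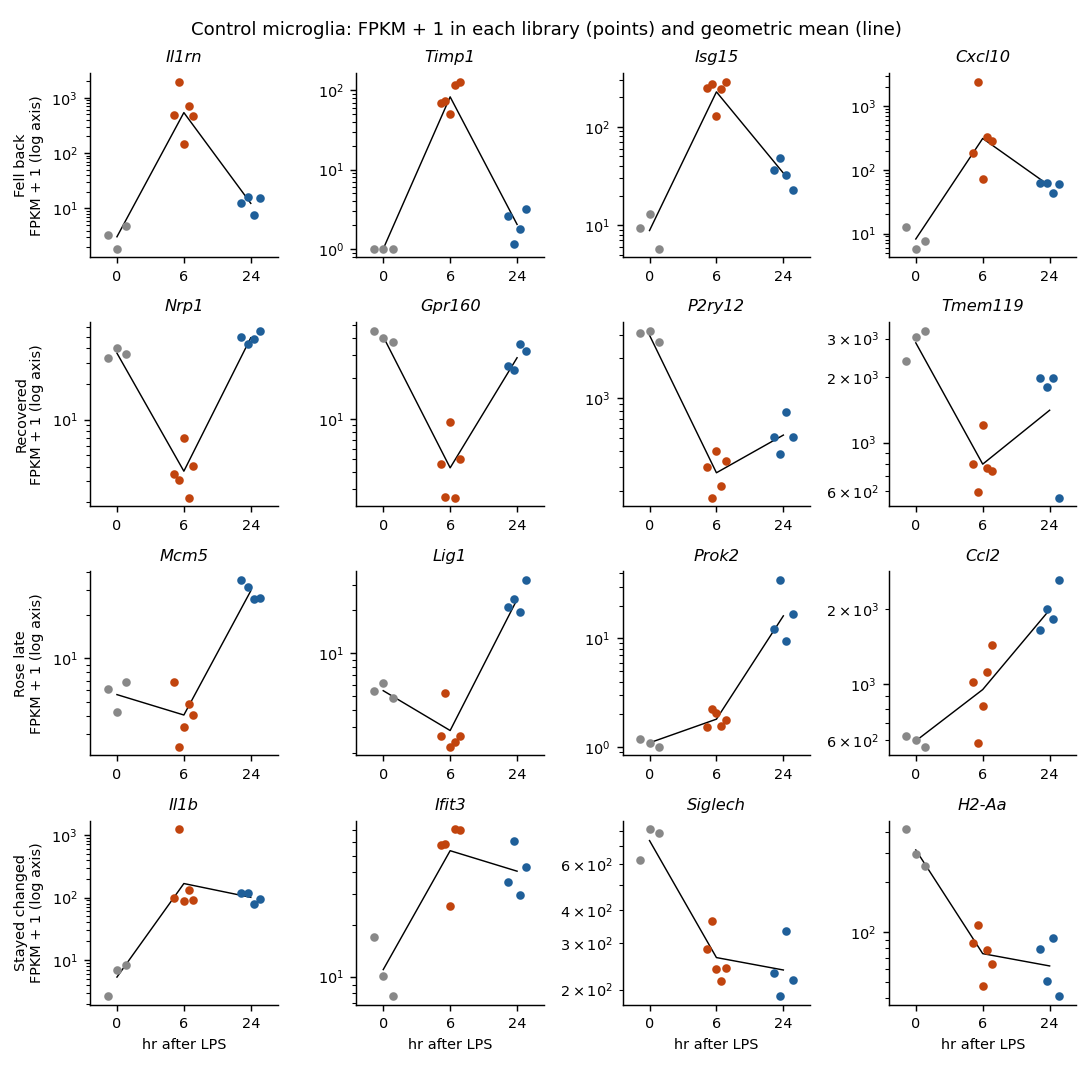
FPKM + 1 (log axis) of 16 genes in each control library at 0, 6 and 24 hr after LPS. Points are libraries and the line joins the geometric means. *Il1rn* and *Timp1* come down from 6 to 24 hr, *Nrp1* and *Gpr160* come back up, *Mcm5*, *Lig1* and *Prok2* rise by 24 hr, and *Il1b*, *Siglech* and *H2-Aa* lie at 24 hr within their range of 6 hr or close to it.

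Promoters of the groups described below are shown first, because ISGs and genes of DNA replication carry motifs whose letters can be seen. Windows of 300 bases, 250 before to 50 after the first listed RefSeq start (GRCm38.p6), were found for 9762 of the 12684 genes tested. The ISRE core was searched on both strands as GAAANNGAAA, and the E2F motif, bound by the factors that drive S phase genes, as TTTCCCGC, TTTCGCGC, TTTGCCGC or TTTGGCGC. Capitals mark matches on either strand, and overlapping matches run together.
Isg15 (chr4:156200845-156200926, minus strand): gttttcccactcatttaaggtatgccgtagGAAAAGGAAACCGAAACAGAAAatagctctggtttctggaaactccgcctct
Ifit1 (chr19:34640755-34640843, plus strand): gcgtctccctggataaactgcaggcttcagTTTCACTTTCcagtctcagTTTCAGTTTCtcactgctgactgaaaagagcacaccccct
Cxcl10 (chr5:92349063-92349132, minus strand): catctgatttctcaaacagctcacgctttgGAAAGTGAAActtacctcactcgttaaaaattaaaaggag
Ifit3 (chr19:34583343-34583446, plus strand): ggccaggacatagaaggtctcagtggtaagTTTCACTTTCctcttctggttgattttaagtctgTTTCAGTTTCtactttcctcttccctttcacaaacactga
Bst2 (chr8:71537557-71537632, minus strand): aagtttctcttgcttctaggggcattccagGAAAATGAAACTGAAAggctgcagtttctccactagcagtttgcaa
Mcm5 (chr8:75109326-75109397, plus strand): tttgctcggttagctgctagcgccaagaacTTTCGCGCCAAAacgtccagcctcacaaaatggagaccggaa
Mcm6 (chr1:128359715-128359845, minus strand): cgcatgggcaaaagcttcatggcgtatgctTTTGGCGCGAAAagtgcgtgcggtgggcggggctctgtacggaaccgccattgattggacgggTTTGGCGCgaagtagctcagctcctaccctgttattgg
Hells (chr19:38930898-38930965, plus strand): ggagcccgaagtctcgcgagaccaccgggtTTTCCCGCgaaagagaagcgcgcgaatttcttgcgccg
*Isg15*, *Ifit1* and *Cxcl10* are shown as genes that fell back, *Ifit3* and *Bst2* as ISGs that stayed higher, and *Mcm5*, *Mcm6* and *Hells* as genes of the late rise. The ISRE core was found in 3.25% of all promoters, in 22 of 35 from the ISG list (62.9%), and in 16 of 24 ISGs that fell back and 4 of 6 that stayed higher (66.7% of each). The E2F letters were found in 4.2% of all promoters, in 16 of 103 of the late rise class (15.5%), in 9 of 27 from the S phase list (33.3%) and in 1 of 25 from the mitosis list (4%). A match is a stretch of letters and not a site in use, and its absence says only that these letters are not in the window.

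Of the 12 genes with the largest decreases, all but *Sdc4* and *Hp* were below 7 FPKM in each library at 0 hr. *Il1rn* (Entrez 16181), which encodes the IL-1 receptor antagonist, was at 495, 1954, 142, 705 and 463 FPKM in the 5 libraries at 6 hr and at 11.5, 14.9, 6.6 and 14.6 FPKM in the 4 libraries at 24 hr (log2 fold change -5.44 with SE 0.48, adjusted p = 5.11e-08). The groups lay far apart, and 73.1% of the rise by 6 hr was undone. *Timp1* (Entrez 21857), an inhibitor of matrix metalloproteinases, was listed at 0 in all 3 libraries at 0 hr, at 68.3, 72.0, 49.4, 117 and 128 FPKM at 6 hr and at 1.61, 0.145, 0.793 and 2.21 FPKM at 24 hr (log2 fold change -5.34 with SE 0.38, adjusted p = 1.89e-09). *Sdc4*, a heparan sulfate proteoglycan of the cell surface, was at 19.3 to 26.7 FPKM at 0 hr, 243 to 3173 FPKM at 6 hr and 27.2 to 63.7 FPKM at 24 hr (log2 fold change -4.12 with SE 0.46, adjusted p = 7.86e-07), with replicate 2 at 6 hr as the highest library. *Ptges*, the prostaglandin E synthase, was listed at 0 at 0 hr, at 4.97 to 33.5 FPKM at 6 hr and at 0.131 to 0.581 FPKM at 24 hr (log2 fold change -3.10 at an adjusted p of 4.70e-06). *Ptgs2*, the cyclooxygenase one step before it, was at 1.75 to 12.9 FPKM at 6 hr and 2.09 to 4.51 FPKM at 24 hr and did not pass the test (log2 fold change -0.24, 95% interval -0.87 to 0.40). *Sphk1*, a kinase that makes sphingosine 1-phosphate, fell from 3.13 to 55.0 FPKM at 6 hr to 0.0512 to 0.451 FPKM at 24 hr (log2 fold change -3.36 at an adjusted p of 7.47e-06). *Ifi205* and *AA467197* fell by 4.38 and 4.23 on the log2 scale, and reads of *Ifi205* may be shared with its near-identical relatives.

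Cytokines and chemokines fell in part. Of 29 tested, 9 fell (*Il6*, *Il12b*, *Il27*, *Tnfsf9*, *Cxcl9*, *Cxcl10*, *Cxcl11*, *Ccl5* and *Ccl9*), 2 rose (*Ccl2* and *Ccl6*), and the median log2 fold change was -0.19, against 0.003 for all genes tested. Among all genes tested, 13.3% were lower and 15% higher, so the share of the list that rose is below that of all genes. *Cxcl10* (Entrez 15945), a ligand of CXCR3 on T cells, was at 11.6, 4.75 and 6.65 FPKM at 0 hr, 180, 2412, 69.7, 326 and 282 FPKM at 6 hr and 60.2, 60.1, 42.2 and 59.8 FPKM at 24 hr (log2 fold change from 6 to 24 hr -2.47, SE 0.58, adjusted p = 0.00231). The groups did not overlap, and all 24 hr libraries remained above those at 0 hr. *Ccl5*, a chemokine that attracts T cells, went from 938 to 7169 FPKM at 6 hr down to 171 to 678 FPKM at 24 hr (log2 fold change -2.49 at an adjusted p of 0.000114), with 34.9 to 65.7 FPKM at 0 hr. *Il6* fell from between 3.84 and 26.5 FPKM at 6 hr to between 1.86 and 3.25 FPKM at 24 hr (log2 fold change -1.84 at an adjusted p of 0.000296), and *Ccl9* from between 113 and 771 FPKM at 6 hr to between 43.1 and 61.3 FPKM at 24 hr (log2 fold change -2.17 at an adjusted p of 4.89e-05). *Il12b*, a subunit of IL-12 and IL-23, owed much of the size of its change to a single library. It was at 1439 FPKM in replicate 2 at 6 hr against 5.38 to 17.5 in the others, and at 3.5 to 8.90 FPKM at 24 hr. Its log2 fold change of -2.40 (adjusted p = 0.0497) was -1.01 without that library (adjusted p = 0.0187), and the call was lost without any single library at 0 or 24 hr or replicate 4 at 6 hr (adjusted p = 0.0545 to 0.101). The call of *Tnfsf9* was lost without replicate 1, 2 or 3 at 24 hr (adjusted p = 0.0749 to 0.0879). Without replicate 2 at 6 hr and replicate 4 at 24 hr, 4 members of the list were called higher and 9 lower.

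Several cytokines induced by 6 hr had no called change from 6 to 24 hr and were still higher than at 0 hr. *Il1b* (Entrez 16176) was at 1.68, 6.01 and 7.39 FPKM at 0 hr, 98.0, 1238, 87.5, 131 and 89.3 FPKM at 6 hr and 117, 115, 78.2 and 93.7 FPKM at 24 hr. From 6 to 24 hr its log2 fold change was -0.73 with a 95% interval of -1.90 to 0.44, while the change from 0 to 24 hr was 4.22 (adjusted p = 5.20e-05). The antagonist *Il1rn* thus came down in the same libraries in which *Il1b* did not pass the test, and the decoy receptor *Il1r2*, at 20 to 122 FPKM at 6 hr and 20.4 to 166 FPKM at 24 hr, did not pass it either (log2 fold change -0.02, 95% interval -1.38 to 1.34). *Ccl12*, a ligand of CCR2, stayed at 2363 to 7750 FPKM at 6 hr and 2624 to 5143 FPKM at 24 hr, above 277 to 429 FPKM at 0 hr (24 against 0 hr, log2 fold change 3.24 at an adjusted p of 1.71e-07). *Cxcl2*, a ligand of CXCR2, which is the chemokine receptor of neutrophils, was at 41.6 to 191 FPKM and 40.6 to 105 FPKM at these times, with 5.47 to 10.2 FPKM at 0 hr. *Tnf* was at 145 to 637 FPKM at 6 hr and 170 to 276 FPKM at 24 hr, with 92.5 to 116 FPKM at 0 hr. Its call at 24 against 0 hr (log2 fold change 1.10 at an adjusted p of 0.0194) was lost without replicate 2 at 0 hr (1.0, adjusted p = 0.0777) or replicate 1 at 24 hr (1.01, adjusted p = 0.0509).

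Some genes that restrain the LPS signal came down. The list of NF-kB and MAP kinase feedback genes holds these beside other NF-kB targets such as *Tnfaip2*. In this list 16 of 33 fell and 1 rose (*Nfkbid*), with a median of -0.68 (11 lower and 3 higher without the pair of libraries that stood apart). Among all genes tested, 13.3% were lower and 15% higher. The 18 members of the list that had changed at least 2-fold by 6 hr had 67.2% of that change undone in the median. *Tnfaip2*, an NF-kB target, fell from between 15.3 and 520 FPKM at 6 hr to between 5.74 and 7.87 FPKM at 24 hr (log2 fold change -2.74 with SE 0.56, adjusted p = 0.000774). *Dusp2*, a phosphatase of MAP kinases, fell from between 31.2 and 545 FPKM at 6 hr to between 15.7 and 32.3 FPKM at 24 hr, where the groups just overlapped (log2 fold change -2.03 at an adjusted p of 0.00293). *Socs3*, which blocks signals of the IL-6 family, had a log2 fold change of -1.54 (adjusted p = 0.0232), and the call was lost without replicate 2 at 6 hr (-1.05, adjusted p = 0.0744) or replicate 4 at 24 hr (-0.86, adjusted p = 0.144). *Nfkbia*, the main inhibitor of NF-kB, did not pass the test, at 1063 to 4239 FPKM at 6 hr and 1169 to 1313 FPKM at 24 hr (log2 fold change -0.47 at an adjusted p of 0.135), but passed it without replicate 3 at 6 hr (-0.65, adjusted p = 0.0301). *Tnfaip3*, another inhibitor of NF-kB, did not pass the test (log2 fold change -0.44). Of 33 Toll-like receptor signalling genes, 11 fell and 5 rose (7 and 6 without the same pair), beside 13.3% lower and 15% higher among all genes tested, so that the share that rose is that of all genes. The coreceptor *Cd14* fell from 2450, 12770, 1457, 4150 and 2161 FPKM at 6 hr to 914, 985, 856 and 1095 FPKM at 24 hr (log2 fold change -1.79 with SE 0.36, adjusted p = 0.000562), near the 650 to 776 FPKM of 0 hr, and 82% of its rise was undone. *Tlr4*, which it serves, was among the 5 genes that rose.

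Most ISGs fell from 6 to 24 hr, and most were still above their 0 hr level. All but 1 of the 46 tested had risen by 6 hr, 30 then fell, and 36 were still called higher at 24 hr than at 0 hr, with a median log2 fold change of 2.44 by 6 hr and -0.78 from 6 to 24 hr. Without the pair of libraries that stood apart, 24 fell and 1 rose. Among all genes tested, 21.4% were higher at 6 hr than at 0 hr, 13.3% fell from 6 to 24 hr and 12.1% were higher at 24 hr than at 0 hr. The 42 ISGs that had changed at least 2-fold had 35.9% of the change undone in the median, beside 51% for all genes that had risen 2-fold. *Isg15* (Entrez 100038882), a ubiquitin-like protein, was at 8.27, 11.9 and 4.74 FPKM at 0 hr, 244, 270, 127, 242 and 287 FPKM at 6 hr and 35.3, 47.5, 31.6 and 21.9 FPKM at 24 hr (log2 fold change -2.74 with SE 0.34, adjusted p = 2.77e-06). All 24 hr libraries lay between those at 0 and 6 hr. *Irf7*, the regulator that amplifies type I interferon, showed the same order of the groups, with 3.75 to 13.7 FPKM at 0 hr, 184 to 363 FPKM at 6 hr and 24.9 to 99.5 FPKM at 24 hr (log2 fold change -2.12 at an adjusted p of 9.09e-05). The exonuclease *Isg20* fell by 2.83 on the log2 scale (adjusted p = 3.79e-07) and the GTPase *Ifi47* by 3.02 (adjusted p = 3.27e-05).

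Another 8 ISGs were in the class that stayed higher, namely *Ifit2*, *Ifit3*, *Ifit3b*, *Oas2*, *Gbp7*, *Bst2*, *Xaf1* and *Rtp4*. This class rests on a missing call between 6 and 24 hr and not on an unchanged level. *Ifit2* and *Oas2* had log2 fold changes of -0.70 and -0.46 from 6 to 24 hr, while *Usp18* was called as fallen at -0.55. *Ifit3* (Entrez 15959), which binds viral RNA in a complex with *Ifit1*, was at 6.71 to 16 FPKM at 0 hr, 57.0, 57.3, 24.8, 70.5 and 69.0 FPKM at 6 hr and 34.2, 59.8, 28.8 and 42.0 FPKM at 24 hr (6 to 24 hr, log2 fold change -0.39, 95% interval -0.94 to 0.15). Reads of *Ifit3* and its near-identical copy *Ifit3b* may have been split. *Ifit1* itself fell from 26.7 to 162 FPKM at 6 hr to 12 to 29.8 FPKM at 24 hr, with overlap between the groups (log2 fold change -1.44 with SE 0.33, adjusted p = 0.00177). *Bst2* (tetherin) was at 133 to 147 FPKM at 0 hr, 211 to 330 FPKM at 6 hr and 335 to 436 FPKM at 24 hr, where every 24 hr library lay above every 6 hr library but the change did not pass the test (log2 fold change 0.33 at an adjusted p of 0.12). The ISG promoters printed above, taken from both classes, hold the ISRE core.

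Genes of innate effectors and the acute phase, a list that also holds genes of prostaglandin synthesis and oxidative stress, included many that fell. Of 31 tested, 19 fell and 2 rose (*Cyba* and *Alox5ap*, and 15 fell and 2 rose without the pair of libraries that stood apart), with a median of -1.23. Among all genes tested, 13.3% were lower and 15% higher. Of the list, 19 were still called higher at 24 hr than at 0 hr, beside 12.1% of all genes. *Saa3* (Entrez 20210), an acute phase serum amyloid, was at 0.280, 0 and 3.81 FPKM at 0 hr, 7845, 9196, 5923, 11200 and 7643 FPKM at 6 hr and 1663, 1342, 766 and 1450 FPKM at 24 hr (log2 fold change -2.70 with SE 0.43, adjusted p = 6.02e-05). It remained far above the 0 hr level, with 22.3% of the log2 change undone. *Hp*, which encodes the hemoglobin-binding haptoglobin, fell from between 817 and 1531 FPKM at 6 hr to between 79.5 and 225 FPKM at 24 hr (log2 fold change -3.23 with SE 0.48, adjusted p = 3.00e-05). *Irg1*, the enzyme that makes itaconate, fell from between 37.6 and 506 FPKM at 6 hr to between 11.8 and 29.5 FPKM at 24 hr (log2 fold change -2.63 at an adjusted p of 0.000906). Of 15 complement genes tested, 4 rose and 3 fell, with a median of -0.08, beside 15% higher and 13.3% lower among all genes tested. The shares of the list lie not far from these, so the counts are not read as a change of complement genes as a set. Among those that fell, *Cfb*, the protease of the alternative pathway, fell from between 103 and 284 FPKM at 6 hr to between 27.3 and 56.8 FPKM at 24 hr (log2 fold change -2.38 at an adjusted p of 0.000101) and *C3* from between 13.1 and 18.9 FPKM at 6 hr to between 4.53 and 5.84 FPKM at 24 hr (log2 fold change -1.46 at an adjusted p of 0.00296). *Cfp* (properdin), which stabilizes the alternative pathway, stayed higher, at 87.5 to 155 FPKM and 37.2 to 113 FPKM, from 2.48 to 11.7 FPKM at 0 hr.

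Of 12 genes of class II presentation and costimulation tested, 3 fell from 6 to 24 hr (*Cd40*, *Cd86* and *Cd274*) and 2 rose (*H2-DMa* and *H2-DMb1*), the latter a share near the 15% of all genes, and the class II chains *H2-Aa*, *H2-Ab1* and *H2-Eb1* had no called change from their low 6 hr level. *Cd40* fell by 2.33 on the log2 scale (adjusted p = 0.00246) and *Cd274* (PD-L1) by 1.69 (adjusted p = 0.00139), and both had risen by 6 hr. The class II chains were still lower than at 0 hr. *H2-Aa* (Entrez 14960) was at 418, 293 and 248 FPKM at 0 hr, 84.8, 109, 46.3, 76.9 and 63.6 FPKM at 6 hr and 78.1, 49.8, 91.8 and 40.1 FPKM at 24 hr (24 against 0 hr, log2 fold change -2.32 at an adjusted p of 2.69e-06). *H2-DMb1*, part of the complex that loads peptides on class II, did recover, from 36.0 to 67.1 FPKM at 6 hr to 132 to 154 FPKM at 24 hr (log2 fold change 1.39 with SE 0.14, adjusted p = 3.53e-07), with 88.7% of its fall undone. Of 19 class I presentation genes, 4 fell and 2 rose (1 fell without the pair of libraries that stood apart), beside 13.3% lower and 15% higher among all genes, and *B2m*, *H2-K1* and *H2-D1* had log2 fold changes of -0.12, -0.12 and -0.30 that did not pass the test.

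Genes that respond to glucocorticoids, the stress hormones that rise after LPS, returned furthest among the lists with at least 10 genes changed 2-fold by 6 hr, with 75.5% of the change undone in the median of 11 genes. Of 18 tested, 13 fell and 1 rose (*Sesn1*), with a median of -0.88, beside 13.3% lower and 15% higher among all genes tested. *Fkbp5* (Entrez 14229), a cochaperone of the glucocorticoid receptor, was at 148, 43.0, 134, 132 and 152 FPKM at 6 hr and 23.6, 32.8, 18.5 and 24.4 FPKM at 24 hr, with 10.5 to 11.3 FPKM at 0 hr (log2 fold change -2.15 with SE 0.34, adjusted p = 4.39e-05). *Tsc22d3* (GILZ) fell from between 127 and 213 FPKM at 6 hr to between 39.0 and 61.4 FPKM at 24 hr (log2 fold change -1.81 at an adjusted p of 5.67e-06), to just below the 63.9 to 83.6 FPKM of 0 hr. In replicate 2 at 6 hr, where the cytokines were highest, both genes were lowest, but the metallothioneins *Mt1* and *Mt2* of the same list were highest (*Mt2* at 2086 FPKM against 29.7 to 520), and the mean level of the list (log2) was 5.52 there and 5.13 to 5.64 in the other libraries. The metallothionein *Mt1* fell from between 416 and 3610 FPKM at 6 hr to between 206 and 256 FPKM at 24 hr (log2 fold change -2.25 at an adjusted p of 5.38e-05), and 94.5% of its rise was undone.

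Among glycolysis genes more fell than rose, and among respiration genes more rose than fell, while most members of the respiration list did not pass the test. In the glycolysis list, 9 of 20 fell and 1 rose (*Hk3*), with a median of -0.37 and 70.1% of the change undone in the median of 9 genes. The glucose transporter *Slc2a1* (Entrez 20525) was at 156, 191, 90.3, 158 and 96.5 FPKM at 6 hr and 36.4, 35.6, 30.9 and 8.91 FPKM at 24 hr, with 25.3 to 29.7 FPKM at 0 hr (log2 fold change -2.38 with SE 0.28, adjusted p = 1.66e-06). *Pfkfb3*, which drives the flux through phosphofructokinase, fell from between 56.2 and 712 FPKM at 6 hr to between 29.1 and 39.1 FPKM at 24 hr (log2 fold change -2.26 at an adjusted p of 0.000367), and the lactate dehydrogenase *Ldha* from between 224 and 319 FPKM at 6 hr to between 102 and 183 FPKM at 24 hr (log2 fold change -0.88 at an adjusted p of 0.000211). Of 73 oxidative phosphorylation genes, 29 rose and 2 fell, with a median of 0.31, and without the pair of libraries that stood apart 18 rose and 1 fell. *Ndufa13*, a subunit of complex I, rose from between 80.4 and 107 FPKM at 6 hr to between 144 and 281 FPKM at 24 hr (log2 fold change 0.94 at an adjusted p of 6.55e-05). In the cholesterol list, 9 of 26 fell and 4 rose (5 fell without that pair), beside 13.3% lower and 15% higher among all genes, so that the share that rose is near that of all genes. The sterol exporter *Abcg1* rose, with a log2 fold change of 1.53 (adjusted p = 0.000112).

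**Figure D2:**
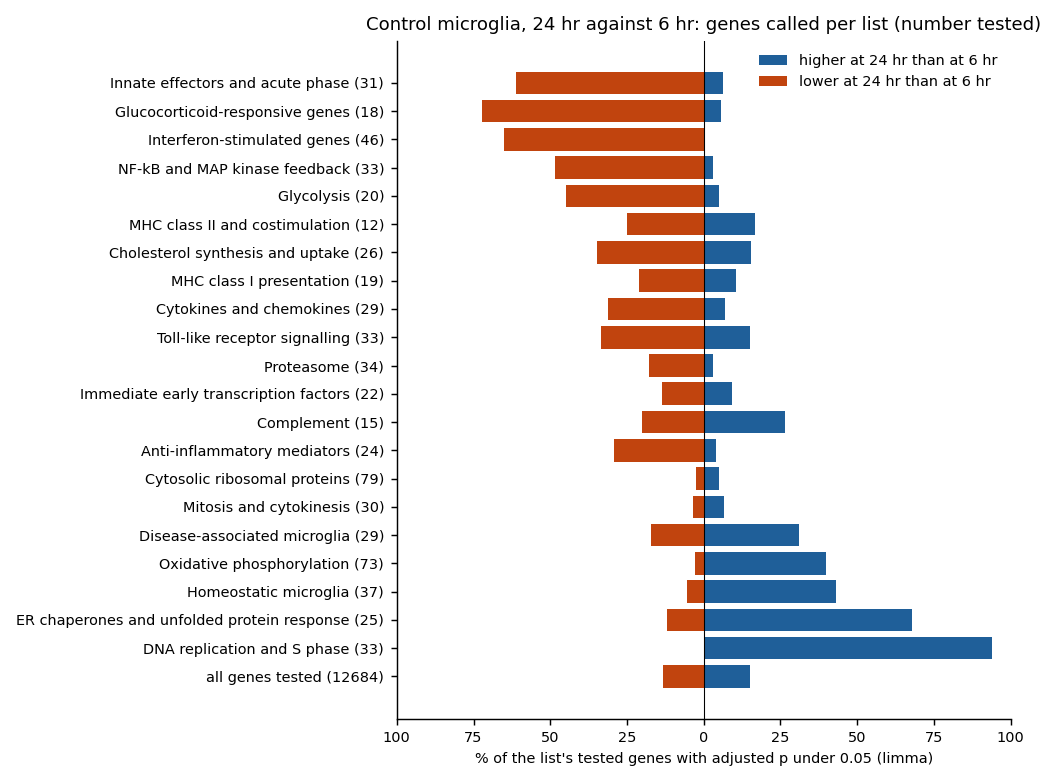
Percent of the tested genes of each pathway list (cell type markers are not plotted) that passed the test as higher (blue, to the right) or lower (red, to the left) at 24 hr than at 6 hr in control microglia, with all 12684 tested genes as the last bar. The S phase and ER chaperone lists reach furthest to the right, and the glucocorticoid, ISG and innate effector lists furthest to the left.

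Among the genes that had fallen by 6 hr, *Nrp1* (Entrez 18186), a coreceptor of semaphorins and VEGF, had the clearest return. It was at 31.9, 39.4 and 35 FPKM at 0 hr, 2.5, 2.06, 5.97, 1.18 and 3.06 FPKM at 6 hr and 48.6, 42.1, 46.7 and 55.2 FPKM at 24 hr (log2 fold change 3.74 with SE 0.24, adjusted p = 4.59e-10), so that all 24 hr libraries lay above all libraries at 0 and at 6 hr. The orphan receptor *Gpr160* was at 36.6 to 44.4 FPKM at 0 hr, 3.65, 1.63, 8.47, 1.58 and 4.07 FPKM at 6 hr and 23.7, 22.3, 35.1 and 30.9 FPKM at 24 hr (log2 fold change 2.72 with SE 0.28, adjusted p = 2.43e-07). Of its fall, 83.9% was undone. *Dhrs3*, a retinaldehyde reductase, rose from between 18.6 and 159 FPKM at 6 hr to between 363 and 487 FPKM at 24 hr (log2 fold change 2.68 at an adjusted p of 6.04e-06), and the lysosomal transporter *Slc46a3* from between 1.36 and 15.2 FPKM at 6 hr to between 28.4 and 38.2 FPKM at 24 hr (log2 fold change 2.60 at an adjusted p of 1.27e-05). Both stayed below their 0 hr libraries, which held 605 to 878 FPKM and 88.0 to 99.3 FPKM.

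Homeostatic microglia genes recovered in part. Of the 37 in the list, 31 had fallen by 6 hr, beside 21.1% of all genes tested. From 6 to 24 hr, 16 rose and 2 fell (*Spi1* and *Adora3*), beside 15% higher and 13.3% lower among all genes. *Adora3* had risen at least 2-fold by 6 hr, so its fall was a return. At 24 hr 24 members were still called lower than at 0 hr, beside 9.23% of all genes. The median log2 fold change of the list was -1.21 by 6 hr and 0.41 from 6 to 24 hr. The 24 genes that had changed at least 2-fold, *Adora3* among them, had 39% of the change undone in the median. For all genes changed 2-fold it was 50.9%, and for those that had fallen 50.8%. *Gpr34*, a receptor for lysophosphatidylserine, rose from between 24.5 and 79.4 FPKM at 6 hr to between 148 and 274 FPKM at 24 hr (log2 fold change 2.38 with SE 0.26, adjusted p = 7.60e-07) and still lay under its 774 to 1110 FPKM at 0 hr. *P2ry12* (Entrez 70839), the ADP receptor of process outgrowth, was at 3131, 3242 and 2650 FPKM at 0 hr, 301, 175, 397, 216 and 333 FPKM at 6 hr and 511, 379, 782 and 506 FPKM at 24 hr (log2 fold change 0.95 with SE 0.21, adjusted p = 0.00179). Its groups at 6 and 24 hr overlapped, and both lay far under those at 0 hr, with 27.4% of the fall undone. *Sall1*, a transcription factor of microglial identity, rose from between 17.4 and 37.3 FPKM at 6 hr to between 36.8 and 49.1 FPKM at 24 hr (log2 fold change 0.91 at an adjusted p of 0.000102), and the matrix protein gene *Olfml3* rose from between 318 and 514 FPKM at 6 hr to between 1009 and 1480 FPKM at 24 hr (log2 fold change 1.64 at an adjusted p of 0.000166), with 86.5% undone.

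The fractalkine receptor *Cx3cr1* and *Tmem119* passed the test less firmly. *Tmem119* (Entrez 231633) was at 793, 590, 1204, 762 and 743 FPKM at 6 hr and 1979, 1790, 1986 and 556 FPKM at 24 hr (log2 fold change 0.82 at an adjusted p of 0.0208), and 3 of the 4 libraries at 24 hr lay above all at 6 hr. Without replicate 4 at 24 hr its log2 fold change was 1.27, while leaving out replicate 1, 2 or 3 at 24 hr or replicate 2 at 6 hr ended the call (0.66 to 0.71, adjusted p = 0.055 to 0.0878). *Cx3cr1* had a log2 fold change of 0.61 (adjusted p = 0.0434), and leaving out any of 7 of the 9 libraries ended the call (0.46 to 0.63, adjusted p = 0.0554 to 0.165). *Spi1*, which encodes the factor PU.1, fell from 672 to 1010 FPKM to 597, 554, 565 and 218 FPKM (log2 fold change -0.90 at an adjusted p of 0.00147). Without replicate 4 at 24 hr the log2 fold change of *Spi1* was -0.55 and still passed the test.

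**Figure D3:**
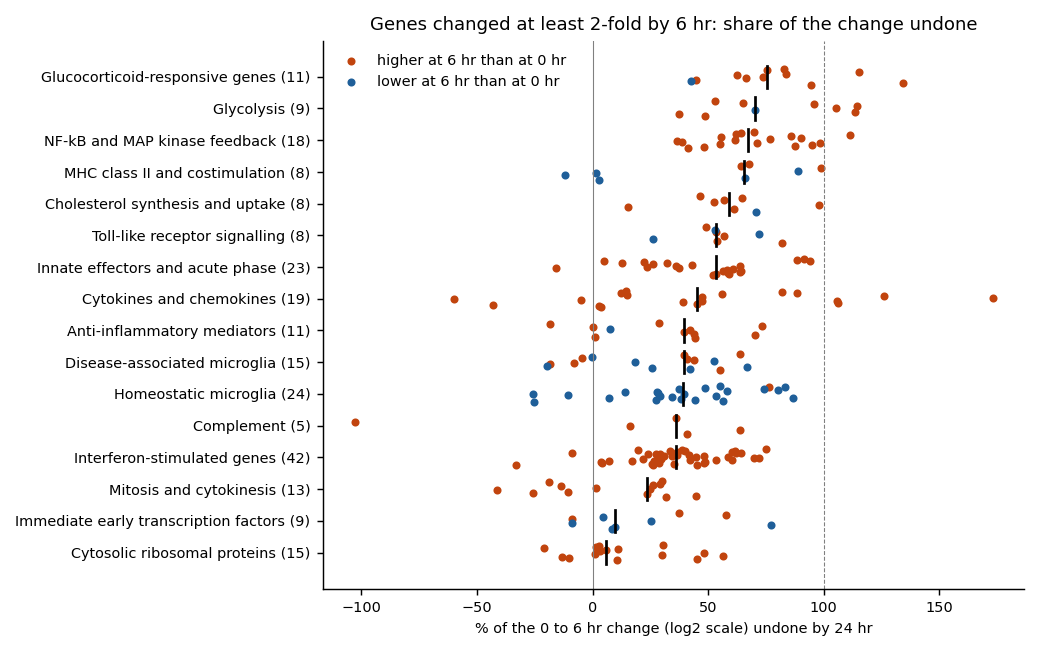
Percent of the 0 to 6 hr change (log2) that was undone by 24 hr, for each gene that changed at least 2-fold by 6 hr, in lists with 5 or more such genes. Black bars are medians, 0 means that the 6 hr level was kept and 100 that the 0 hr level was reached. The glucocorticoid median is at 75.5% and the ISG median at 35.9%.

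Genes of disease-associated microglia, a state described around amyloid plaques, had members called in both directions, with 9 of 29 higher and 5 lower (3 lower without the pair of libraries that stood apart), beside 15% higher and 13.3% lower among all genes tested. The share called lower is near that of all genes. The lipid receptor *Trem2* was at 2090 to 2361 FPKM at 0 hr, 686 to 803 FPKM at 6 hr and 884 to 1092 FPKM at 24 hr (log2 fold change 0.40 at an adjusted p of 0.0135). *Apoe*, a lipid carrier, had a log2 fold change of 0.72 (adjusted p = 0.021), and the call was lost without replicate 1 or replicate 2 at 24 hr (0.60 and 0.63, adjusted p = 0.0791 and 0.073). *Spp1* (osteopontin) fell from between 77.8 and 255 FPKM at 6 hr to between 21.2 and 63.5 FPKM at 24 hr (log2 fold change -1.88 at an adjusted p of 0.000991), while the phagocytic receptor *Axl* was at 2.74 to 7.10 FPKM and 1.74 to 6.24 FPKM and did not pass the test.

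Genes of DNA replication were 22 of the 133 genes of the late rise. Of the 33 genes in the S phase list, 31 rose from 6 to 24 hr, beside 15% higher among all genes tested, with a median log2 fold change of 1.55. The mean level of the list (log2) was 2.02 to 2.30 in the libraries at 6 hr, 2.19 to 2.29 at 0 hr and 3.58 to 3.88 at 24 hr, so each 24 hr library lay above all the others, and 31 genes also rose without the pair of libraries that stood apart. *Mcm5* (Entrez 17218), a subunit of the replicative helicase, was at 5.09, 3.23 and 5.83 FPKM at 0 hr, 5.90, 1.42, 2.31, 3.79 and 3.07 FPKM at 6 hr and 34.1, 30.5, 24.8 and 25.4 FPKM at 24 hr (log2 fold change 2.87 with SE 0.29, adjusted p = 2.64e-07). *Lig1* (Entrez 16881), the ligase that joins Okazaki fragments, was at 1.63, 4.27, 1.19, 1.39 and 1.63 FPKM at 6 hr and 20, 23.1, 18.3 and 31.7 FPKM at 24 hr (log2 fold change 3.06 with SE 0.21, adjusted p = 1.73e-09), with 3.81 to 5.16 FPKM at 0 hr. Neither gene overlapped between the times. *Mcm6* rose by 2.48 (log2, adjusted p = 1.47e-07), the primase subunit *Prim1* by 2.43 (adjusted p = 2.39e-06), *Gins2* of the helicase complex by 2.51 (adjusted p = 1.24e-07) and the transcription factor *E2f1*, from between 0.155 and 0.601 FPKM at 6 hr to between 3.06 and 6.74 FPKM at 24 hr, by 2.09 (adjusted p = 4.76e-06). *Pcna*, the sliding clamp, rose least among these, from between 39.5 and 47.3 FPKM at 6 hr to between 60.9 and 82.9 FPKM at 24 hr (log2 fold change 0.65 at an adjusted p of 7.92e-05). *Rrm2* and *Tyms*, both of nucleotide synthesis, did not pass the test (log2 fold changes 0.35 and 0.38).

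Few genes of mitosis changed from 6 to 24 hr. Of 30 tested, 2 rose (*Cks2* and *Mad2l1*) and 1 fell (*Kif2c*), with a median of 0.05 (1 rose without the pair of libraries that stood apart), beside 15% higher and 13.3% lower among all genes tested. By contrast, 18 had been higher at 6 hr than at 0 hr and 13 were higher at 24 hr, beside 21.4% and 12.1% of all genes. *Top2a* (Entrez 21973), the topoisomerase of dividing cells, was at 0.891 to 2.77 FPKM at 0 hr, 5.82, 7.26, 4.25, 7.72 and 6.99 FPKM at 6 hr and 6.95, 6.58, 4.51 and 12.2 FPKM at 24 hr (6 to 24 hr, log2 fold change 0.16, 95% interval -0.48 to 0.79). The proliferation marker *Mki67* was at 1.73 to 3.31 FPKM and 1.82 to 7.15 FPKM. The kinesin *Kif2c* fell from between 14.6 and 23.8 FPKM at 6 hr to between 6.48 and 12 FPKM at 24 hr (log2 fold change -1.08 at an adjusted p of 9.59e-05), from under 1 FPKM at 0 hr. *Mad2l1* lost its call without replicate 1 or 3 at 6 hr or replicate 4 at 24 hr (0.64 to 0.78, adjusted p = 0.0576 to 0.121). *Hells*, a helicase of chromatin that no list held, rose with the S phase genes, from 0.443 to 1.45 FPKM to 10.9, 11.7, 8.30 and 21.6 FPKM (log2 fold change 2.96 with SE 0.25, adjusted p = 3.15e-08). Its promoter and those of *Mcm5* and *Mcm6* hold the E2F letters printed above.

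The late rise also held genes outside DNA replication. *Prok2* (Entrez 50501), the chemotactic prokineticin 2, had the largest late rise and was at 0.197, 0.0960 and 0 FPKM at 0 hr, 0.543, 1.24, 1.04, 0.553 and 0.757 FPKM at 6 hr and 11.3, 33.7, 8.4 and 15.9 FPKM at 24 hr (log2 fold change 3.16 with SE 0.32, adjusted p = 2.37e-07). The small nucleolar RNA gene *Snord13* had the next largest, from between 35.2 and 119 FPKM at 6 hr to between 454 and 1187 FPKM at 24 hr (log2 fold change 3.06 with SE 0.32, adjusted p = 3.85e-07), with 60.4 to 78.5 FPKM at 0 hr. The myeloid receptor gene *Cd300e* rose from between 1.25 and 3.15 FPKM at 6 hr to between 14.9 and 28.4 FPKM at 24 hr (log2 fold change 2.83 with SE 0.37, adjusted p = 6.16e-06). *Ccl2* (Entrez 20296), the main ligand of CCR2 on monocytes, was at 624, 599 and 561 FPKM at 0 hr, 1022, 585, 817, 1117 and 1439 FPKM at 6 hr and 1641, 1992, 1819 and 2615 FPKM at 24 hr (log2 fold change 1.06 with SE 0.21, adjusted p = 0.000646), without overlap between 6 and 24 hr. *C4b*, a component of the classical complement pathway whose reads may be shared with a close copy, rose from between 1.63 and 4.11 FPKM at 6 hr to between 6.32 and 11.6 FPKM at 24 hr (log2 fold change 1.27 at an adjusted p of 0.00163).

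Chaperones of the endoplasmic reticulum rose together. Of 25 genes, 17 rose and 3 fell (*Atf6*, *Atf4* and *Xbp1*), with a median of 0.83, and 19 rose and 1 fell without the pair of libraries that stood apart. Among all genes tested, 15% were higher and 13.3% lower, so the share that fell is near that of all genes. *Sdf2l1* (Entrez 64136), a cofactor of the chaperone BiP, was at 254, 263 and 200 FPKM at 0 hr, 96.0, 95.1, 158, 91.0 and 97.5 FPKM at 6 hr and 728, 812, 726 and 950 FPKM at 24 hr (log2 fold change 2.91 with SE 0.22, adjusted p = 5.26e-09). It thus passed from below to above its 0 hr level. *Hspa5* (BiP) rose from between 795 and 1417 FPKM at 6 hr to between 1879 and 2058 FPKM at 24 hr (log2 fold change 0.98 at an adjusted p of 0.00108), *Pdia4* by 1.74 (adjusted p = 6.86e-06) and *Manf* by 1.06 (adjusted p = 3.33e-05). The 3 genes that fell are transcription factors of the unfolded protein response. *Atf6* fell from between 22.4 and 34.9 FPKM at 6 hr to between 10.7 and 12.9 FPKM at 24 hr (log2 fold change -1.31 with SE 0.15, adjusted p = 8.45e-07), whereas the call of *Xbp1* (log2 fold change -0.37 at an adjusted p of 0.0459) was lost in 8 of the 12 fits that left out 1 control library.

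The late fall held 7 genes, *Nbl1*, *Nek6*, *Pcp4*, *Ptafr*, *Gm13012*, *Klk9* and *Cd82*. The kinase *Nek6* was at 45.8 to 63.8 FPKM at 0 hr, 78.6, 100.9, 63.1, 74.7 and 67.0 FPKM at 6 hr and 31.7, 34.5, 34.5 and 15.9 FPKM at 24 hr (log2 fold change -1.41 with SE 0.22, adjusted p = 3.78e-05). *Ptafr*, the receptor of platelet-activating factor, and the tetraspanin *Cd82* were raised at 6 hr by replicate 2 (124 and 322 FPKM, against 16.8 to 22.1 and 46.9 to 129 in the others). Without that library *Ptafr* had a log2 fold change of -0.60 in place of -1.13 and *Cd82* one of -0.64 in place of -1.07, and the call of *Cd82* was lost (adjusted p = 0.0898). The call of *Cd82* was also lost without replicate 4 at 6 hr (adjusted p = 0.0759) or replicate 4 at 24 hr (adjusted p = 0.151), and that of *Ptafr* without replicate 4 at 24 hr (-1.01, adjusted p = 0.0733).

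Genes that stayed changed had a median absolute log2 fold change between 6 and 24 hr of 0.26 where they stayed higher and 0.25 where they stayed lower. *Fpr1* (Entrez 14293), the formyl peptide receptor, was at 3.94, 0.878 and 3.30 FPKM at 0 hr, 49.1, 47.7, 33.6, 47.9 and 36.8 FPKM at 6 hr and 61.5, 94.7, 37.8 and 77.9 FPKM at 24 hr (24 against 0 hr, log2 fold change 4.26 at an adjusted p of 9.13e-07). Between 6 and 24 hr the log2 fold change of *Fpr1* was 0.59 with a 95% interval of -0.26 to 1.43. *Igfbp6*, a binding protein of IGF-II, stayed at 21.5 to 33.8 FPKM and 16.8 to 31.3 FPKM from at most 1.09 FPKM at 0 hr (24 against 0 hr, log2 fold change 4.08 at an adjusted p of 9.10e-10), and the acid phosphatase *Acp5* at 19.6 to 33.7 FPKM and 22.1 to 39.5 FPKM from at most 2.58 FPKM. *Cd244*, a receptor of the SLAM family, was at 44.0 to 55.2 FPKM and 35.6 to 48.5 FPKM from 1.11 to 2.24 FPKM (24 against 0 hr, log2 fold change 4.03 at an adjusted p of 1.76e-14). *Ecm1*, an extracellular matrix protein, had a log2 fold change of 4.42 at 24 against 0 hr (adjusted p = 9.09e-07) and -0.40 from 6 to 24 hr (95% interval -1.28 to 0.47).

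Among genes that stayed lower, *Siglech* (Entrez 233274), a lectin receptor of microglia, was at 618, 812 and 786 FPKM at 0 hr, 284, 364, 238, 215 and 240 FPKM at 6 hr and 229, 188, 334 and 217 FPKM at 24 hr (6 to 24 hr, log2 fold change -0.16, 95% interval -0.49 to 0.18). The 6 and 24 hr libraries overlapped and all lay under those at 0 hr. *Tnfrsf17* (BCMA) was at 39.7 to 43.5 FPKM at 0 hr and at 1.03 to 3.44 FPKM and 2.75 to 4.84 FPKM at the later times (24 against 0 hr, log2 fold change -3.26 at an adjusted p of 1.92e-07). *Ramp1*, part of the CGRP receptor, was at 16.4 to 18.7 FPKM and then at 0.952 to 3.5 FPKM and 1.67 to 2.19 FPKM (log2 fold change -2.63 at an adjusted p of 4.40e-07). The immediate early gene *Fos* was at 2643 to 2824 FPKM at 0 hr, 224 to 1473 FPKM at 6 hr and 500 to 1067 FPKM at 24 hr (24 against 0 hr, log2 fold change -1.81 at an adjusted p of 0.00239). Most cytosolic ribosomal protein genes were higher at both later times than at 0 hr (64 of 79 at 6 hr and 58 at 24 hr), beside 21.4% and 12.1% of all genes tested. Between 6 and 24 hr 4 of them rose and 2 fell, with a median of -0.02, beside 15% higher and 13.3% lower among all genes. The counts of 3 more lists are given beside 13.3% lower and 15% higher among all genes, and the shares lower of the proteasome and immediate early lists lie near the former. Of 34 proteasome genes 6 fell and 1 rose, of 24 anti-inflammatory mediators 7 fell and 1 rose (5 fell and 4 rose without the pair of libraries that stood apart), and of 22 immediate early transcription factors 3 fell and 2 rose (4 fell and 1 rose without that pair).

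WM repopulating cells moved alike for most genes between the same times, in libraries that are not shared with the control comparison, with 1039 genes higher and 951 lower. Of the 3593 genes called in control microglia, 3362 (93.6%) had a change of the same sign in WM repopulating cells, beside 74.1% of all genes tested. The difference between the changes, tested as an interaction, passed for 20 genes (0.158%), 18 with a more positive change in control microglia and 2 with a more negative one, and 1208 genes had an unadjusted p under 0.05. The count was 12 without replicate 1 and 13 without replicate 4 at 24 hr, 9 and 50 with pseudocounts of 0.1 and 5, and 65 with array weights. *Lig1*, *Gins2*, *Mcm6*, *Mcm7*, *Mcm3* and *Mcm4* of the S phase list were among the 18, as were *Hells*, *Dtl*, *Chek1*, *Atad2*, *Cenpk* and *Dnajc9*. *Lig1* rose by 3.06 in control microglia and by 0.80 in WM repopulating cells (difference 2.25, 95% interval 1.61 to 2.9, adjusted p = 0.00245), and *Hells* by 2.96, with 0.65 in WM repopulating cells that did not pass the test (difference 2.32, 95% interval 1.56 to 3.08, adjusted p = 0.00607). In the S phase list as a whole, 7 of 33 genes rose in WM repopulating cells with a median of 0.41, against 31 and 1.55 in control microglia. Among all 12684 genes tested, 1039 were called higher in WM repopulating cells and 1907 in control microglia, so the 2 counts stand against unequal backgrounds. *Slc43a3*, a transporter of purine bases, rose by 2.45 in control microglia and had 0.15 in WM repopulating cells (difference 2.30, adjusted p = 0.00731).

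*Clec4n* (Dectin-2), a receptor for fungal mannans, changed in opposite directions, by 0.83 in control microglia and -1.41 in WM repopulating cells (difference 2.23, 95% interval 1.48 to 2.99, adjusted p = 0.00658). Its control libraries were at 11.3, 7.42, 9.12, 9.63 and 11 FPKM at 6 hr and 15.2, 13.4, 14 and 35.1 FPKM at 24 hr. Without replicate 4 at 24 hr the control change of *Clec4n* was 0.52 and did not pass the test (adjusted p = 0.0917). The immediate early gene *Ier2* fell by 0.81 in control microglia and had 0.37 in WM repopulating cells (difference -1.18, adjusted p = 0.0471). The others that passed were the small nuclear RNA genes *Rnu2-10* (difference 2.94) and *Rnu12* (2.65), the histone gene *Hist1h4c* (1.43), *E030042O20Rik* (1.59) and *Gm15708* (-1.86), and reads of small nuclear RNA and histone genes may be shared with close copies.

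**Figure D4:**
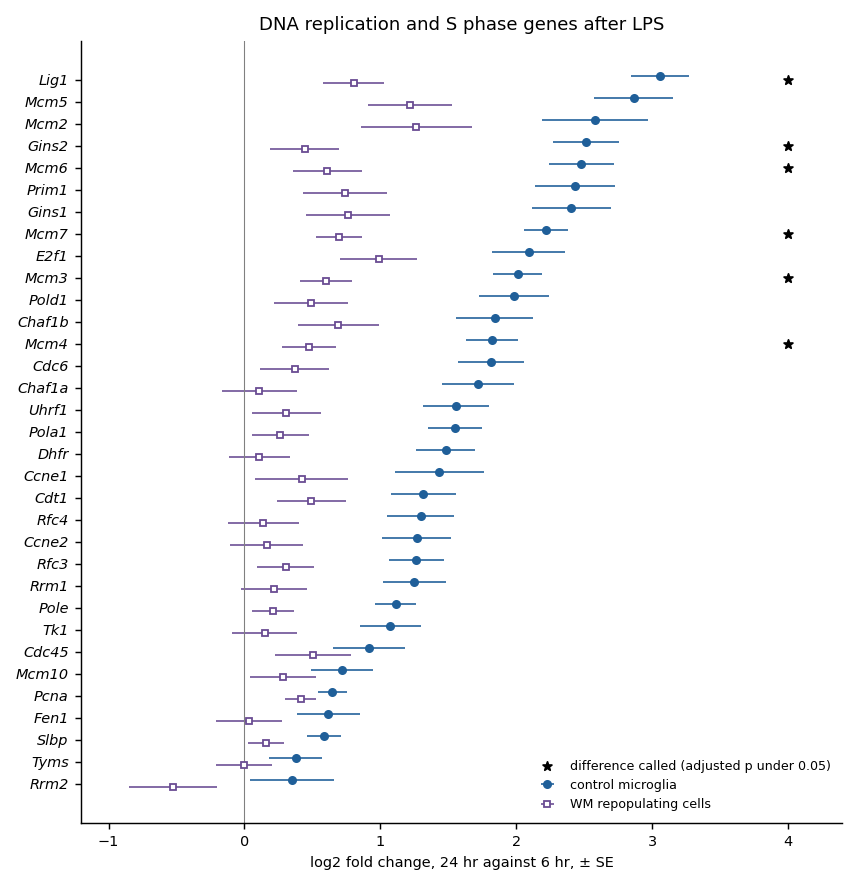
Log2 fold change ± SE from 6 to 24 hr of the 33 genes of the S phase list in control microglia (circles, n = 5 and 4) and WM repopulating cells (squares, n = 4 and 4). Stars mark the 6 genes whose difference passed the interaction test, and the circles lie at 1.55 in the median and the squares at 0.41.

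Markers of other myeloid cells moved between the same times, and in sorted bulk libraries fewer cells of a type and less RNA per cell cannot be told apart. Of 13 neutrophil markers, 6 rose (*Retnlg*, *Mmp9*, *Ly6g*, *S100a8*, *S100a9* and *Cxcr2*), beside 15% higher among all genes tested. The summed level of the 13 markers was 1936 to 9206 FPKM at 0 hr, 975 to 5893 FPKM at 6 hr and 6539 to 15480 FPKM at 24 hr. *S100a8* had most of that sum, at 618 to 3356 FPKM at 6 hr and 4105 to 10190 FPKM at 24 hr, and the call of *S100a9* (log2 fold change 2.17 at an adjusted p of 0.0244) was lost without replicate 5 at 6 hr or replicate 2 or 3 at 24 hr (adjusted p = 0.0537 to 0.0863). The defining marker *Ly6g* was at 0, 3.09, 0, 1.03 and 0 FPKM at 6 hr and 6.18, 17.6, 3.48 and 2.83 FPKM at 24 hr (log2 fold change 2.18 at an adjusted p of 0.00133). *Prok2*, *Il1r2*, *Cxcl2*, *Fpr1*, *Igfbp6* and *Ecm1* had their highest level at 24 hr in replicate 2, the library with the highest *Ly6g* and *Retnlg*, and the part of neutrophils in these results was not tested. Of 13 monocyte markers, 8 fell, beside 13.3% lower among all genes tested. The sum of the 13 markers was 143 to 396 FPKM at 0 hr, 1584 to 3139 FPKM at 6 hr and 531 to 704 FPKM at 24 hr. The coagulation factor gene *F10* fell from between 79.0 and 104 FPKM at 6 hr to between 5.24 and 12.1 FPKM at 24 hr (log2 fold change -3.22 at an adjusted p of 1.02e-05) and *Ly6c2* from between 261 and 594 FPKM at 6 hr to between 67.7 and 104 FPKM at 24 hr (log2 fold change -2.36 at an adjusted p of 0.000444). The defining receptor *Ccr2* was at 16 to 35 FPKM at 0 hr, 19.3 to 52.2 FPKM at 6 hr and 9.72 to 20 FPKM at 24 hr. The monocyte sum moved in the same direction as *Saa3*, *Hp*, *Timp1* and the ISGs from 6 to 24 hr, and its part in those decreases was not tested.

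Of 10 markers of border-associated macrophages, 4 rose (*Pf4*, *Ms4a7*, *Cbr2* and *Cd209f*) and 2 fell (*F13a1* and *Cd38*), beside 15% higher and 13.3% lower among all genes, with sums of 136 to 228 FPKM at 6 hr and 127 to 163 FPKM at 24 hr, and *Mrc1* and *Lyve1* did not pass the test. Of the markers of lymphocytes (10 tested), endothelial and mural cells (3), astrocytes (5), oligodendrocytes and their precursors (4) and neurons (4), those that passed were *Cd79b*, which rose, and *Flt1* and *Slc1a3*, which fell (0 endothelial and mural markers fell without the pair of libraries that stood apart). The summed levels of these lists were at most 77.9 FPKM at 6 or 24 hr, and no erythrocyte marker passed the filter on low values.

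**Figure D5:**
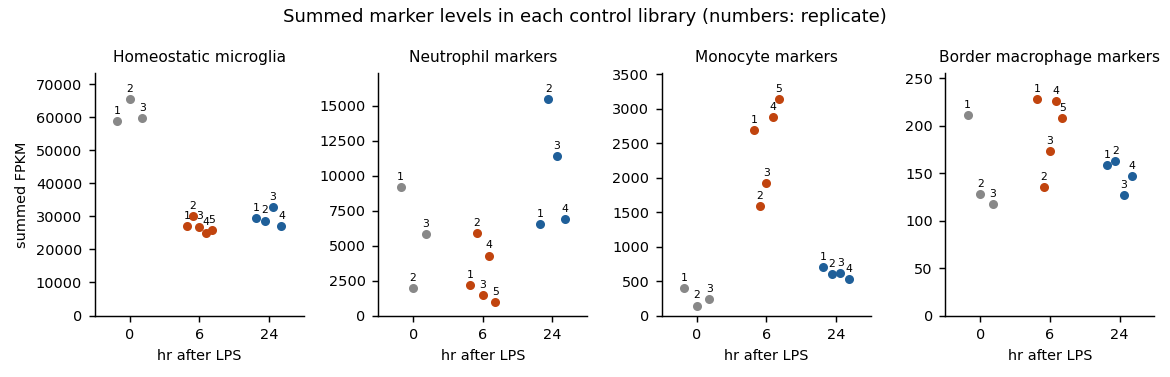
Summed FPKM of the homeostatic, neutrophil, monocyte and border-associated macrophage marker lists in each control library at 0, 6 and 24 hr, with the replicate number at each point. The neutrophil sum lies at 6539 FPKM or more at 24 hr and at 5893 FPKM or less at 6 hr, and the monocyte sum is highest at 6 hr.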

How the data were processed

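RNA was measured in 24 libraries of sorted cells, of which 12 are control microglia. The authors extracted RNA with RNeasy columns, prepared libraries with Smart-seq2 and Nextera reagents, aligned reads with STAR, counted them with featureCounts and normalized them with edgeR, and the table they deposited holds FPKM per gene (called RPKM in the methods) for 15285 genes. The labels name the mm10 build, and their protocol field describes microdissected tissue and another library preparation, so sorting and preparation are given as in the methods. Gene models and the strand setting of the counting are not given in the sources used here. Values came out as whole reads (within 0.01 reads) for 100% of genes after division by a step per gene and library, which gave the library sizes and the depth behind each value.

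Genes that reached 1 FPKM in 3 or more libraries were compared with limma 3.58.1 (R 4.3.3) on log2(FPKM + 1), all 6 groups in a single fit with a variance trend and Benjamini-Hochberg adjustment, 2-sided. The fold change on this scale understates changes of low genes. Groups came from the titles, the labels give no batch, and identical values were found in 0 pairs of libraries. The methods count n in mice, but the labels do not tie libraries to mice, and p-values measure the spread between libraries. Named genes are the 12 with the largest change in each direction without overlap, the 8 with the largest change of each class, the 5 most changed of each list, the 8 with the smallest p of the interaction and a set of well-known genes, of which those most needed are given. Some genes that this rule names are not reported here. Any other gene named was chosen after its values were seen. The genes, lists and classes were chosen with earlier results of these data known. RefSeq promoters were searched in Python 3.11.15 (numpy 2.4.6, pandas 2.3.3), and plots were drawn with matplotlib 3.10.9. Alternatives were another pseudocount, filter, scaling, set of groups, weighting and block, leaving out each library, and, after seeing the data, leaving out 2 libraries together and limma voom on the recovered reads.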

Additional observations from a re-analysis of the deposited data

Results flagged for a closer look

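In 340 groups of 4 or 5 libraries (a named gene at a time), 42 had a library whose gap to its neighbour passed Dixon's limit, where chance gives about 1 in 20 groups. Replicate 2 at 6 hr was the high library for 12 genes, mostly cytokines and targets of NF-kB, in FPKM *Il1b* 1238, *Tnf* 637, *Il12b* 1439, *Ccl3* 10340, *Ccl4* 20470, *Cxcl2* 191, *Tnfsf9* 343, *Tnfaip2* 520, *Socs3* 439, *Ptafr* 124, *Lig1* 4.27 and *Hells* 1.45. It was the low library for *Ccl6* at 85.5, *Mertk* at 12.3, and the glucocorticoid-responsive *Fkbp5* at 43.0 and *Tsc22d3* at 127. Replicate 3 at 6 hr was low for the ISGs *Isg15* at 127 and *Ifit3* at 24.8, for *Tap1* at 35.2, *Cd244* at 44.0, *Gins2* at 1.11 and *Cks2* at 7.87, and high for the chaperones *Sdf2l1* at 158 and *Creld2* at 142. Replicate 5 at 6 hr was high for *Rrm2* at 10.5 and *E030042O20Rik* at 0.783.

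Replicate 4 at 24 hr was the low library for the microglial genes *Tmem119* at 556, *Csf1r* at 595 and *Spi1* at 218 FPKM, for *Jun* at 257, *Nek6* at 15.9 and *Slc2a1* at 8.91, and the high library for the chaperones *Hsp90b1* at 920 and *Hyou1* at 47.3, the sterol exporter *Abcg1* at 178, *Ccne2* at 8.04, *Cenpk* at 10.3 and *Clec4n* at 35.1. At 24 hr, replicate 3 was low for *Cxcl10* at 42.2 and *Ccl6* at 178, and replicate 2 high for *Bst2* at 436 and *Zbtb16* at 0.0760.

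The change from 6 to 24 hr differed between control microglia and WM repopulating cells, by limma's interaction term, with log2 differences of 2.25 for *Lig1*, 2.32 for *Hells*, 2.07 for *Gins2*, 1.87 for *Mcm6*, 1.52 for *Mcm7*, 1.41 for *Mcm3*, 1.35 for *Mcm4*, 1.71 for *Dtl*, 1.25 for *Chek1*, 1.57 for *Atad2*, 1.67 for *Cenpk* and 1.35 for *Dnajc9*. Outside DNA replication and the cell cycle, it was 2.30 for *Slc43a3*, 2.23 for *Clec4n*, 1.59 for *E030042O20Rik*, -1.18 for *Ier2*, 2.94 for *Rnu2-10*, 2.65 for *Rnu12* and -1.86 for *Gm15708*, and it was 1.43 for the histone gene *Hist1h4c*. All of these had an adjusted p under 0.05 among the 12684 genes tested.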

How the results depend on the processing

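The counts of genes higher and lower from 6 to 24 hr (1907 and 1686) stayed within 1.5 times under each alternative other than the replicate block, among them limma voom on the recovered reads (1922 and 1557). No gene named with a call changed sign. The median log2 fold change of all genes lay between -0.0169 and 0.0317 under the alternatives. Without 1 library each, these counts ranged from 1658 to 2071 and 1434 to 1806, those at 6 against 0 hr from 2328 to 2888 higher and 2266 to 2845 lower, those at 24 against 0 hr from 1129 to 1699 and 805 to 1373, the genes that rose and fell back from 699 to 878, those that fell and recovered from 600 to 858, the late rise from 115 to 148, the late fall from 2 to 18, stayed higher from 204 to 262, stayed lower from 163 to 224 and the interaction from 12 to 28. The late fall went from 7 to 4 without replicate 2 or 3 at 0 hr, 11 without replicate 1 at 6 hr, and 18, 15 and 2 without replicates 1, 3 and 4 at 24 hr. The interaction went from 20 to 12 and 13 without replicates 1 and 4 at 24 hr.

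With a pseudocount of 0.1, 24 genes fell late, 397 stayed higher and the interaction passed for 9. With a pseudocount of 5, 503 fell back, 422 recovered, 60 rose late, 2 fell late, 88 stayed higher, 65 stayed lower and the interaction passed for 50. With only the 3 control groups in the fit, 755 genes were lower at 24 than at 0 hr and 4 fell late. Array weights gave 65 interaction calls, and voom gave 15 late falls. The cause was not tested in any of these. Deviations from group means of control libraries with the same replicate number correlated at -0.1 to 0.117. Differently numbered libraries were not compared in this way, so these values cannot say whether the numbers pair the libraries. A replicate block gave 1260 higher and 995 lower at 24 against 6 hr, 795 higher and 464 lower at 24 against 0 hr and 1 late fall. Libraries without a partner in the block add nothing to it. Of 170 named results, the block ended the call of 20, the fit of the 3 control groups 14 and that of only the 2 groups compared 13 of those it could test, and voom that of *Il1r2* and *Ccl22* at 24 against 0 hr and of *Il12b*. Size-factor scaling ended none (0). Over all alternatives the calls lost most often were those of *Il12b* (16 of 26), *Xbp1* (15), *Cx3cr1* (12), *Tmem119* and *Cd82* (8 each) and *Tnfsf9* and *Socs3* (7 each). Genes near 1 read have counting error beside the spread between libraries, and 3 libraries at 0 hr limit the precision of the starting level.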
